A study of Homo sapiens with 8 samples.

Results

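The transcriptional coactivators YAP1 and WWTR1 (the latter encodes TAZ), the DNA-binding factors TEAD1 and TEAD4, and 6 target genes of these proteins (CCN1, CCN2, ANKRD1, AMOTL2, LATS2 and THBS1) were examined in RNA sequencing of MCF10A and DCIS.COM cells. The genes were taken by name, and all 10 were measured among the 13771 genes of the table. MCF10A is an immortalized, non-tumorigenic human mammary epithelial cell line. DCIS.COM belongs to the MCF10A lineage and forms lesions resembling ductal carcinoma in situ in mice. Each line had been transduced with a lentivirus carrying either the full-length cDNA of HOTAIR (pCDH-HOTAIR) or no insert (pCDH-empty), and the cells of all 4 groups had been selected with puromycin. HOTAIR is a long intergenic non-coding RNA transcribed from the HOXC locus. Every group had 2 libraries, made from plates that had not reached confluence, and the labels do not say whether these came from separate cultures, so that p-values measure only the spread between the libraries. MCF10A medium held horse serum, EGF, hydrocortisone, insulin and cholera toxin, whereas DCIS.COM medium held horse serum alone. Cell line and medium therefore cannot be told apart in any comparison of the lines.

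In the Hippo pathway the kinases STK3 and STK4, with SAV1, activate LATS1 and LATS2, with MOB1A and MOB1B, and the LATS kinases phosphorylate YAP and TAZ, which then leave the nucleus or are degraded. Unphosphorylated YAP and TAZ enter the nucleus, where they bind TEAD factors on DNA and raise the transcription of genes such as CCN1, CCN2 and ANKRD1. Confluence, soft substrates and loss of actin tension restrain YAP and TAZ, and in breast epithelium they are known for their part in basal cell identity and tumour progression. The activity of both proteins is set largely by phosphorylation and localization, which RNA sequencing does not measure.

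TEAD factors bind the core sequence GGAATG, read as CATTCC on the other strand. Promoter sequences from RefSeq (GRCh38.p14, the 250 bases before the annotated start) were given for 7 of the 10 genes, namely YAP1, WWTR1, CCN2, ANKRD1, AMOTL2, LATS2 and THBS1, and were searched on both strands. The promoters of the 3 targets that differed most in level between the lines are printed 5′ to 3′ on the strand of the gene, with each GGAATG in capitals.
CCN2, chr6:131951373-131951622, minus strand: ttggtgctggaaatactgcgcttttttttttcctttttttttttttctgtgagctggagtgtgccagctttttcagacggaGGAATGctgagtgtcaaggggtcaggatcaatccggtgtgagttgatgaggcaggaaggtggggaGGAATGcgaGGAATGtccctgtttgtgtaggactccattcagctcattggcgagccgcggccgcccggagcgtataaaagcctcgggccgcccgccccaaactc
ANKRD1, chr10:90921088-90921337, minus strand: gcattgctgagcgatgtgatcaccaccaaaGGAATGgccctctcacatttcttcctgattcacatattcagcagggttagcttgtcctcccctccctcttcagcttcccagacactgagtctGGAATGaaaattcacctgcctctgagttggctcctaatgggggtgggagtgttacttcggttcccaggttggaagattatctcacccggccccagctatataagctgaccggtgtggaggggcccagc
THBS1, chr15:39580829-39581078, plus strand: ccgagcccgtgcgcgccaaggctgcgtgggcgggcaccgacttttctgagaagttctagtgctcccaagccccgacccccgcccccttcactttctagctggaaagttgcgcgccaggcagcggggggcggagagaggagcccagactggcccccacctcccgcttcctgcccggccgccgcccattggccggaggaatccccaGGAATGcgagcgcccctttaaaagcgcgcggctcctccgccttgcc
The CCN2 promoter held 3 copies, the first bases of which lay 169, 104 and 95 bases before the start. ANKRD1 held 2, at 220 and 128 bases, and THBS1 held 1, at 46 bases. Of all 35116 promoters of the same length, 11.9% held at least 1 copy, 0.940% at least 2 and 0.0826% at least 3. YAP1 held 1 copy at 162 bases, and AMOTL2 held 1 as CATTCC at 69 bases in 1 of its 2 annotated promoters. The letters were absent from this window in LATS2 and in both annotated promoters of WWTR1. A match describes the sequence and is not a measured binding site.

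Reads recovered from the deposited values and summed over the 13771 genes numbered between 19306864 and 34884841 a library. Reads of HOTAIR itself followed the labels, with 45 and 40 in MCF10A controls against 4614 and 4827 in MCF10A pCDH-HOTAIR, and 119 and 140 against 7166 and 6385 in DCIS.COM. All 8 basal epithelial markers were measured, with a summed level of 14502 to 16402 CPM (reads scaled to a common library total) in MCF10A and 2772 to 3480 CPM in DCIS.COM. The 4 general epithelial markers summed to 1600 to 1725 CPM in MCF10A and 4872 to 6260 CPM in DCIS.COM. Of markers of other cell types, 3 of 8 for fibroblasts (88.8 to 122 CPM in MCF10A, 1.84 to 3.14 CPM in DCIS.COM), 2 of 6 for leukocytes (41.5 to 47.3 CPM and 5.78 to 6.70 CPM) and 1 of 4 for endothelium (1.77 to 2.77 CPM and 10.2 to 13.4 CPM) were in the table, and PTPRC, the defining leukocyte gene, was not. Their part in the differences between the lines was not tested. The DCIS.COM pCDH-empty replicate 1 library stood apart from the other 3 DCIS.COM libraries, and 18.9% of its reads were from the signal recognition particle RNA genes RN7SL1 and RN7SL2, against 11.1% to 14.95% in the other 7 libraries. The fitted differences of the members that rest on this library are given with and without it.

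The first question was how the coactivators, their DNA-binding partners and their targets differed between the lines. DCIS.COM cells had more WWTR1, TEAD4, CCN2, ANKRD1 and THBS1 RNA and less YAP1 and CCN1 RNA than MCF10A cells, both carrying the empty vector. The fitted differences ranged from 2.01-fold lower for YAP1 to 19.0-fold higher for THBS1. The depth-scaled ratio of ANKRD1 reads, which were few in MCF10A, was 26.8. A gene was called when its Benjamini-Hochberg adjusted p across the whole table was below 0.05 and it had changed by 1.5-fold or more (limma). By this rule 5 members were higher and 2 lower in DCIS.COM, where 22.5% of all genes were higher and 23.8% lower (46.3% in all). The median log2 difference of the 10 members was 0.48, beside -0.0001 for all genes. Without DCIS.COM pCDH-empty replicate 1 the median was 0.30, beside 0.01 for all genes, and TEAD4, at 0.49, fell under 1.5-fold. With pCDH-HOTAIR in both lines, 4 members were higher and 2 lower, against 22% and 21.7% of all genes (43.7% in all), and the median of the members was 0.09. Both libraries of a group lay beyond both of the other line for 6 members above and 3 below with the empty vector (40.7% and 40.9% of all genes), and for 5 above and 5 below with HOTAIR (44.8% and 44.3%). In bulk RNA, fewer cells expressing a gene cannot be told apart from less of its RNA per cell.

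The paralogous coactivators went in opposite directions. YAP1 (chr11:101981178-102104155, plus strand; coordinates of genes are in GRCh37) was at 7.55 and 7.62 log2 CPM in MCF10A pCDH-empty, 7.61 and 7.59 in MCF10A pCDH-HOTAIR, 6.43 and 6.71 in DCIS.COM pCDH-empty, and 6.76 and 6.74 in DCIS.COM pCDH-HOTAIR. All DCIS.COM libraries were below all MCF10A libraries, and the log2 difference was -1.01 (SE 0.0905, adjusted p = 2.36e-05, limma) with the empty vector, 2.01-fold lower, and -0.85 (adjusted p = 6.58e-05) with HOTAIR. Without DCIS.COM pCDH-empty replicate 1 the first value was -0.87.

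WWTR1 (chr3:149235022-149454501, minus strand) was at 5.35 and 5.40 log2 CPM in MCF10A pCDH-empty, 5.41 and 5.52 in MCF10A pCDH-HOTAIR, 8.39 and 8.62 in DCIS.COM pCDH-empty, and 8.54 and 8.57 in DCIS.COM pCDH-HOTAIR. The lines did not overlap. Its log2 difference was 3.14 (SE 0.0865, adjusted p = 4.53e-08, limma), 8.80-fold higher in DCIS.COM, and it was 3.09 (adjusted p = 4.90e-08) with HOTAIR in both lines and 3.25 without DCIS.COM pCDH-empty replicate 1. Per kb of annotated transcript, WWTR1 RNA was 0.230 to 0.254 times YAP1 RNA in the 4 MCF10A libraries and 3.68 to 4.16 times in the 4 DCIS.COM libraries. TAZ transcripts thus made up 18.7% to 20.3% of the pair in MCF10A and 78.6% to 80.6% in DCIS.COM.

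The TEAD genes differed less than the coactivators. TEAD1 (chr11:12695968-12966284, plus strand) was at 6.84 and 6.93 log2 CPM in MCF10A pCDH-empty, 6.87 and 6.83 in MCF10A pCDH-HOTAIR, 6.43 and 6.52 in DCIS.COM pCDH-empty, and 6.40 and 6.44 in DCIS.COM pCDH-HOTAIR. It was lower in every DCIS.COM library, by less than 1.5-fold, with a log2 difference of -0.41 (SE 0.0665, adjusted p = 0.000755, limma) with the empty vector, -0.36 without DCIS.COM pCDH-empty replicate 1, and -0.43 with HOTAIR. TEAD4 (chr12:3068496-3149842, plus strand) was at 3.77 and 3.69 log2 CPM in MCF10A pCDH-empty, 3.56 and 3.65 in MCF10A pCDH-HOTAIR, 4.62 and 4.22 in DCIS.COM pCDH-empty, and 3.88 and 3.98 in DCIS.COM pCDH-HOTAIR. All DCIS.COM libraries were above all MCF10A libraries, and the pCDH-empty pair was the higher one within DCIS.COM. With the empty vector TEAD4 was 1.61-fold higher in DCIS.COM (log2 difference 0.69, SE 0.135, adjusted p = 0.00219, limma), but 1.40-fold (0.49) without DCIS.COM pCDH-empty replicate 1, and it was not called with HOTAIR (0.32, adjusted p = 0.0650). TEAD2 and TEAD3, the other TEAD genes, had log2 differences of 0.47 and -0.53 with the empty vector, neither of them called, and 0.55 and -0.71 with HOTAIR, where TEAD3 was called lower in DCIS.COM (adjusted p = 0.000772, limma).

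Per kb, TEAD1 gave the largest share of summed TEAD RNA in every MCF10A library, at 35.6% to 38.2%, and 24.3% to 28.8% in DCIS.COM. TEAD4 made up 21.0% to 24.6% in MCF10A and 26.5% to 38.3% in DCIS.COM. TEAD2 went from 19.8% to 21.8% up to 25.8% to 32.5%, and TEAD3 from 18.0% to 21.1% down to 10.8% to 13.4%. No share overlapped between the lines.

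**Figure D1:**
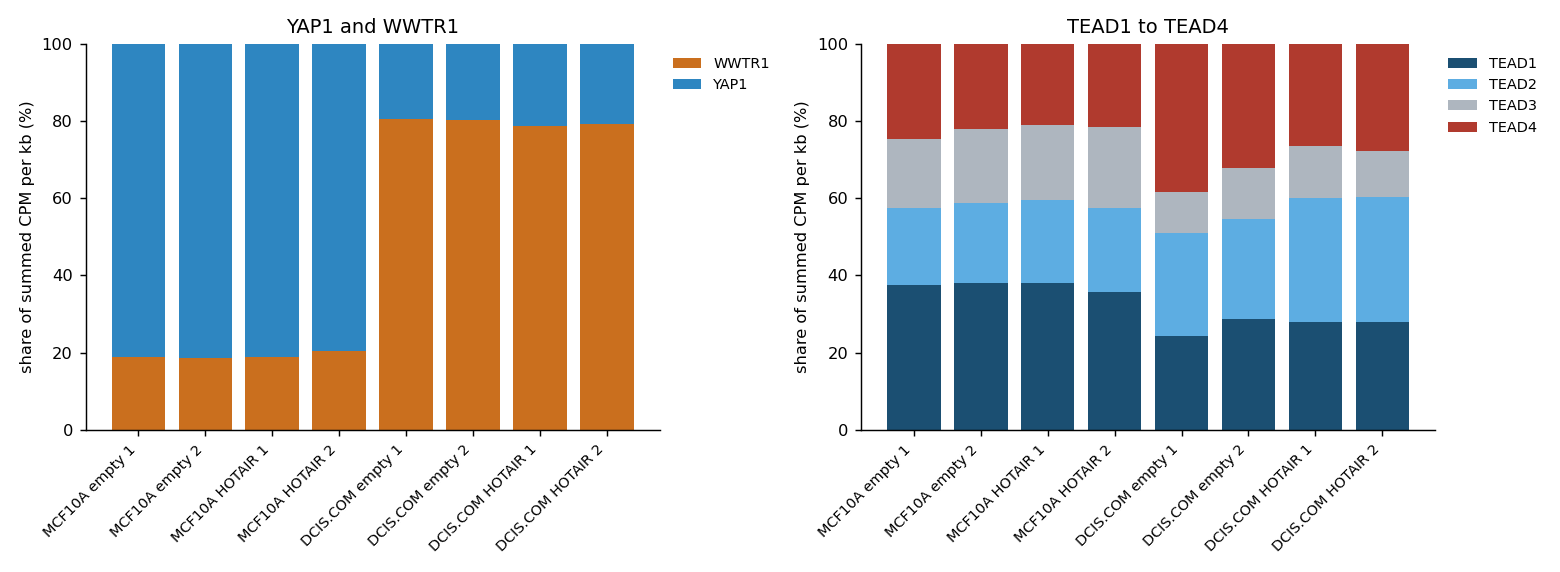
Shares, in percent of summed CPM per kb (y axes), of WWTR1 and YAP1 (left) and of TEAD1 to TEAD4 (right) in each of the 8 libraries (x axes). WWTR1 takes 18.7% to 20.3% of its pair in MCF10A and 78.6% to 80.6% in DCIS.COM.

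The secreted targets did not move together between the lines. CCN2 (chr6:132269316-132272512, minus strand), which encodes the matricellular protein CTGF and carries the 3 GGAATG copies printed above, was at 1.80 and 1.92 log2 CPM in MCF10A pCDH-empty, 2.04 and 2.54 in MCF10A pCDH-HOTAIR, 4.11 and 3.75 in DCIS.COM pCDH-empty, and 3.39 and 3.59 in DCIS.COM pCDH-HOTAIR. Every DCIS.COM library was higher, by 4.20-fold with the empty vector (log2 difference 2.07, SE 0.196, adjusted p = 3.19e-05, limma) and 2.30-fold with HOTAIR (1.20, adjusted p = 0.000814), and the first difference was 1.89 without DCIS.COM pCDH-empty replicate 1. CCN1 (chr1:86046444-86050272, plus strand), which encodes the related matricellular protein CYR61, had its values at 4.59 and 4.85 log2 CPM in MCF10A pCDH-empty, 5.05 and 5.17 in MCF10A pCDH-HOTAIR, 4.21 and 3.88 in DCIS.COM pCDH-empty, and 3.45 and 3.55 in DCIS.COM pCDH-HOTAIR. It was lower in every DCIS.COM library, by 1.60-fold with the empty vector (-0.68, SE 0.135, adjusted p = 0.00237, limma) and 3.05-fold with HOTAIR (-1.61, adjusted p = 1.59e-05). The first call was lost at the 1.5-fold limit without MCF10A pCDH-empty replicate 2 (-0.55) or without DCIS.COM pCDH-empty replicate 2 (-0.51), and the value was -0.84 without DCIS.COM pCDH-empty replicate 1.

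ANKRD1 (chr10:92671853-92680844, minus strand) encodes an ankyrin repeat protein of muscle that is widely used as a readout of YAP activity. Its reads numbered 4 and 1 in MCF10A pCDH-empty, 2 and 6 in MCF10A pCDH-HOTAIR, 57 and 75 in DCIS.COM pCDH-empty, and 86 and 58 in DCIS.COM pCDH-HOTAIR. The MCF10A libraries were near the limit of detection and all lay below DCIS.COM. Scaled to depth, the 132 reads of DCIS.COM against the 5 of MCF10A with the empty vector gave a ratio of 26.8 (95% interval 11.2 to 84.0, counting error only), and 144 against 8 reads with HOTAIR gave 10.3 (5.07 to 24.2). On the log2 CPM scale the fitted differences were 4.01 (adjusted p = 8.24e-05, limma) and 3.05 (adjusted p = 0.000424), the former being 4.28 without DCIS.COM pCDH-empty replicate 1.

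THBS1 (chr15:39873280-39891667, plus strand), the gene for thrombospondin 1, was at 7.13 and 7.69 log2 CPM in MCF10A pCDH-empty, 7.18 and 7.64 in MCF10A pCDH-HOTAIR, 11.86 and 11.45 in DCIS.COM pCDH-empty, and 10.94 and 11.06 in DCIS.COM pCDH-HOTAIR. It was 19.0-fold higher in DCIS.COM with the empty vector (log2 difference 4.24, SE 0.219, adjusted p = 9.21e-07, limma) and 12.03-fold with HOTAIR (3.59, adjusted p = 2.45e-06). The empty-vector difference was 4.04 without DCIS.COM pCDH-empty replicate 1. FSIP1, on the other strand, overlaps its exons, and whether counting used strand is not stated.

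The inhibitors that YAP and TAZ induce as feedback differed little between the lines. AMOTL2 (chr3:134074189-134094321, minus strand), an angiomotin that holds YAP at cell junctions, was at 6.75 and 6.78 log2 CPM in MCF10A pCDH-empty, 6.84 and 6.78 in MCF10A pCDH-HOTAIR, 7.22 and 6.87 in DCIS.COM pCDH-empty, and 6.63 and 6.69 in DCIS.COM pCDH-HOTAIR. The DCIS.COM values lay above those of MCF10A with the empty vector and below them with HOTAIR, with log2 differences of 0.28 (adjusted p = 0.0452, limma, under 1.5-fold) and -0.15 (adjusted p = 0.255). The former was 0.11 without DCIS.COM pCDH-empty replicate 1 and no longer passed 0.05 (adjusted p = 0.0850). LATS2 (chr13:21547175-21635725, minus strand), a kinase that phosphorylates YAP and TAZ, was at 4.72 and 4.93 log2 CPM in MCF10A pCDH-empty, 4.93 and 4.91 in MCF10A pCDH-HOTAIR, 4.94 and 4.77 in DCIS.COM pCDH-empty, and 4.72 and 4.70 in DCIS.COM pCDH-HOTAIR. Its pCDH-empty libraries overlapped between the lines, and the log2 difference of 0.03 (95% interval -0.19 to 0.26, adjusted p = 0.772, limma) was not called, and it was -0.05 without DCIS.COM pCDH-empty replicate 1.

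**Figure D2:**
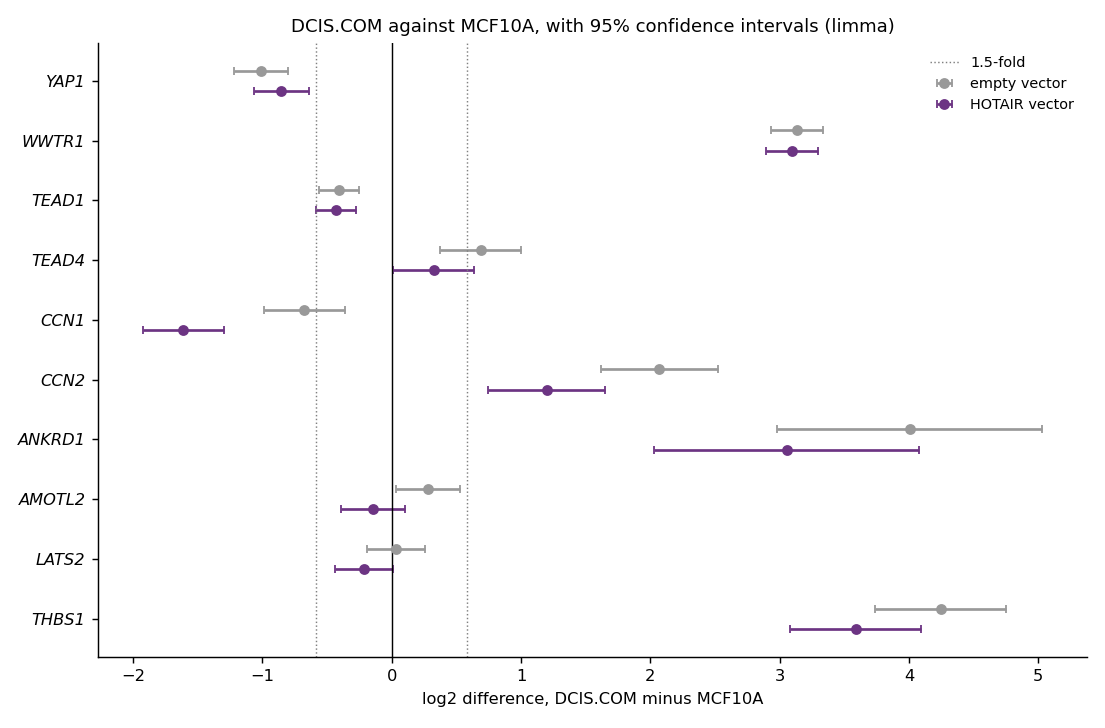
Log2 difference of DCIS.COM minus MCF10A (x axis) for each gene (y axis) with the empty vector and with HOTAIR, as points with 95% intervals from limma (2 libraries a group), and dotted lines at 1.5-fold. THBS1, ANKRD1, WWTR1 and CCN2 lie to the right of the dotted lines with both vectors, and YAP1 and CCN1 to the left.

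The order of the members by level changed between the lines. On the log2 CPM per kb scale YAP1 was first in MCF10A pCDH-empty, at 5.15 ± 0.0495 (SD, n = 2), followed by AMOTL2 (4.48 ± 0.0183) and THBS1 (4.45 ± 0.397), the libraries of which overlapped. TEAD1 (3.65 ± 0.0675) and CCN1 (3.53 ± 0.181), which also overlapped, came next, then WWTR1 (3.04 ± 0.0356), TEAD4 (2.95 ± 0.0576), LATS2 (2.35 ± 0.148), CCN2 (0.61 ± 0.0920) and ANKRD1 last. In DCIS.COM pCDH-empty THBS1 was first (8.69 ± 0.289), followed by WWTR1 (6.17 ± 0.166), AMOTL2 (4.76 ± 0.246), YAP1 (4.14 ± 0.196), TEAD4 (3.64 ± 0.285) and TEAD1 (3.24 ± 0.0678). CCN1 (2.85 ± 0.235) and CCN2 (2.70 ± 0.258) overlapped there, ahead of LATS2 (2.38 ± 0.121) and ANKRD1 (0.36 ± 0.397). In DCIS.COM pCDH-HOTAIR TEAD1 overlapped TEAD4, CCN1 overlapped CCN2 and CCN2 overlapped LATS2.

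The next question was whether HOTAIR changed these genes within a line. In MCF10A none of the 10 members was called by limma, which called 0.0218% of all genes (3 genes, all higher), nor by limma-voom on the recovered reads, which called 5 genes. At an unadjusted p under 0.05 there was 1 member, CCN1, which was higher, where 7.28% of all genes passed that limit, 4.41% higher and 2.88% lower. That count was 0 without MCF10A pCDH-HOTAIR replicate 2 and 3 without replicate 1. CCN1 had a log2 difference of 0.39 (SE 0.135, adjusted p = 0.560, limma), with both pCDH-HOTAIR libraries above both pCDH-empty libraries. CCN2 had 0.43 (SE 0.196, adjusted p = 0.715) and again the pairs did not overlap, although MCF10A pCDH-HOTAIR replicate 2 stood well above replicate 1. WWTR1 (0.09) and AMOTL2 (0.04) did not overlap between the vectors either, and TEAD4 (-0.13) was below in both libraries. That made 4 members above and 1 below without overlap, against 22.5% and 24.8% of all genes. For AMOTL2 and WWTR1 the gap was very small. AMOTL2 was at 6.7774 log2 CPM in pCDH-empty replicate 2 and 6.7776 in pCDH-HOTAIR replicate 2. WWTR1 was at 5.3954 in pCDH-empty replicate 2 and 5.4079 in pCDH-HOTAIR replicate 1. YAP1 (0.02), LATS2 (0.10), TEAD1 (-0.03) and THBS1 (0.0009) overlapped, and for ANKRD1 the 8 reads with HOTAIR against 5 without gave a depth-scaled ratio of 2.35 (95% interval 0.678 to 9.13). The median of the members was 0.07, beside -0.0055 for all genes, and ran from 0.01 without MCF10A pCDH-empty replicate 1 to 0.16 without replicate 2.

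In DCIS.COM too, no member was called by limma, which called 0.0871% of all genes (12 genes, all higher), or by limma-voom, which called 11 genes higher and 1 lower. The same comparison at an unadjusted p under 0.05 gave 4 members, all lower with HOTAIR, where 17.5% of all genes passed, 9.08% higher and 8.41% lower. These were CCN1 (-0.55, SE 0.135, adjusted p = 0.190, limma), TEAD4 (-0.49, SE 0.135, adjusted p = 0.217), AMOTL2 (-0.38, SE 0.106, adjusted p = 0.221) and THBS1 (-0.65, SE 0.219, adjusted p = 0.246). The study lists THBS1 for its response to HOTAIR in these DCIS.COM libraries, so its value is not independent evidence of direction. By edgeR the study reports more changed genes in each line than limma called here. CCN2 was at -0.44 (adjusted p = 0.291) and LATS2 at -0.15 (adjusted p = 0.408). In these 6 genes both pCDH-HOTAIR libraries were below both pCDH-empty libraries, as for 24.5% of all genes, and YAP1 (0.18, adjusted p = 0.326) was above in both, as for 24.7%. WWTR1 (0.05), TEAD1 (-0.05) and ANKRD1 (-0.17) overlapped. The median of the members was -0.27, beside 0.01 for all genes.

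The DCIS.COM pCDH-empty replicate 1 library had the highest CCN1, CCN2, TEAD4, AMOTL2, LATS2 and THBS1 and the lowest YAP1 and WWTR1 of the 4 DCIS.COM libraries. Without it, the log2 differences were -0.38 for CCN1 (adjusted p = 0.185, limma), -0.29 for TEAD4 (0.221), -0.21 for AMOTL2 (0.101), -0.45 for THBS1 (0.391), -0.26 for CCN2 (0.608), -0.06 for LATS2 (0.799) and 0.04 for YAP1 (0.736). All 7 kept their sign, WWTR1 went to -0.07, TEAD1 was at -0.10 and ANKRD1 at -0.44, and none was called. With it as the only DCIS.COM control instead, that is without pCDH-empty replicate 2, TEAD4 (-0.70), CCN1 (-0.71), CCN2 (-0.62) and THBS1 (-0.86) were called, as were 1403 of the 13771 genes. The calls of these 4 genes therefore turned on which control library was used.

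**Figure D3:**
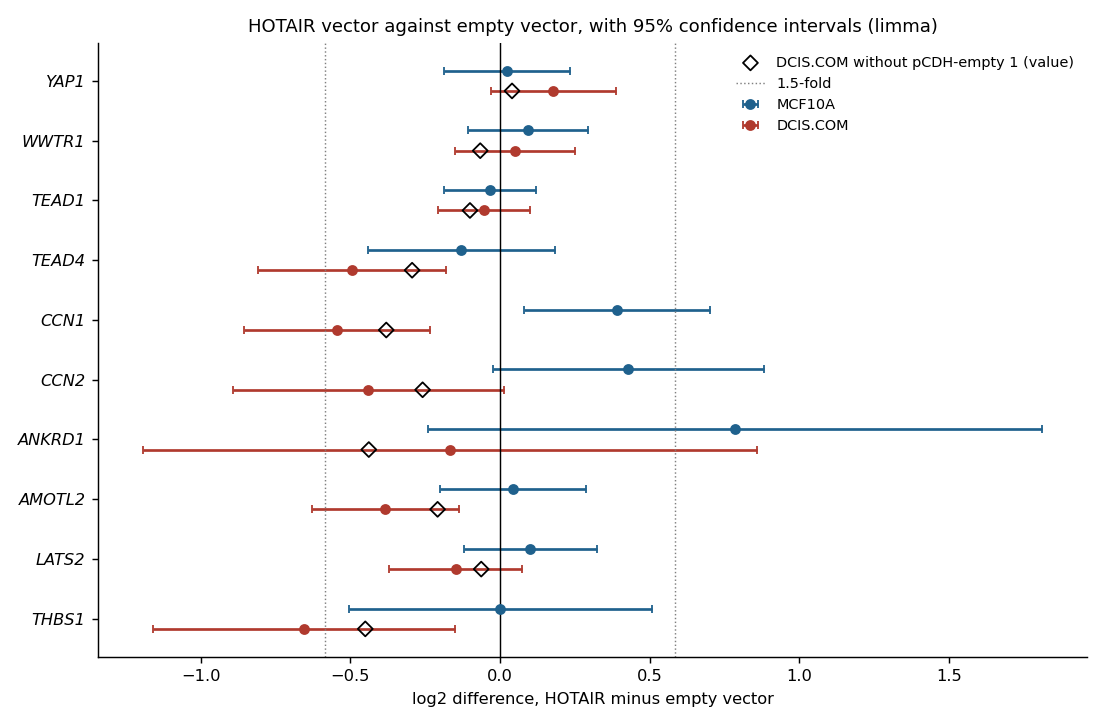
Log2 difference of pCDH-HOTAIR minus pCDH-empty (x axis) for each gene (y axis) in MCF10A and in DCIS.COM, as points with 95% intervals from limma (2 libraries a group), with open diamonds for DCIS.COM without pCDH-empty replicate 1 and dotted lines at 1.5-fold. CCN1 lies at 0.39 in MCF10A and -0.55 in DCIS.COM, and at -0.38 without that library.

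The test of the difference between the lines in the HOTAIR effect called 0 members at an adjusted p under 0.05, beside 0.0436% of all genes (6 genes, 0.0363% higher and 0.00726% lower in DCIS.COM), by limma, and 0 by limma-voom. At an unadjusted p under 0.05 there were 3, all with a lower value in DCIS.COM, beside 10.5% of all genes, 5.21% higher and 5.34% lower. They were CCN1 (-0.94, SE 0.190, adjusted p = 0.238), CCN2 (-0.87, SE 0.276, adjusted p = 0.419) and AMOTL2 (-0.43, SE 0.150, adjusted p = 0.430). Without DCIS.COM pCDH-empty replicate 1 the values were -0.77 (adjusted p = 0.0662), -0.69 (0.321) and -0.25 (0.146). Without DCIS.COM pCDH-empty replicate 2, CCN1 (-1.10), CCN2 (-1.05), AMOTL2 (-0.60), TEAD4 (-0.57) and YAP1 (0.29) were called, and so were 4414 genes of the table.

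Other components of the pathway, taken as a list with earlier results of these data known, were measured for 43 genes. Between the lines with the empty vector, 8 were called higher in DCIS.COM and 13 lower, where 22.5% and 23.8% of all genes were called, with a median log2 difference of -0.35 beside -0.0001 for all genes. The median was -0.18 without DCIS.COM pCDH-empty replicate 1 (0.01 for all genes) and -0.18 without MCF10A pCDH-empty replicate 2 (-0.0053 for all genes). With HOTAIR 5 were higher and 14 lower, against 22% and 21.7% of all genes. AMOT, the founding member of the angiomotin family to which AMOTL2 belongs, had 1 read in both MCF10A controls together and 1113 in DCIS.COM, a depth-scaled ratio of 1131 (95% interval 203 to 44710). With HOTAIR it had 0 and 1380 reads, so that it was at least 262-fold higher in DCIS.COM, with the limit of 3 counts taken over the group. TNIK, a kinase related to the MAP4Ks that act on LATS, was higher by 1.16 on the log2 scale. VGLL3 and VGLL1, cofactors that compete with YAP for TEAD, were lower in DCIS.COM, by 22.0-fold (log2 difference -4.46) and 5.48-fold (-2.46). Among the core kinases and adaptors, named after their values were seen, STK3 (-2.35), STK4 (-0.71) and MOB1B (-1.12) were lower and SAV1 (0.97) higher, while LATS1 (0.52) and MOB1A (0.05) were not called. The call of MOB1B was lost without DCIS.COM pCDH-empty replicate 1 (-0.52), and it was not called with HOTAIR (-0.55). No gene of the list was called for HOTAIR by limma in either line, and unadjusted p-values under 0.05 were found for 3 higher and 1 lower in MCF10A and for 5 higher and 3 lower in DCIS.COM, where 7.28% and 17.5% of all genes passed in either direction. In MCF10A the highest value was that of the protocadherin FAT4 (0.58) and the lowest that of VGLL1 (-0.35), and in DCIS.COM those of MOB1B (0.56) and FAT1 (-0.46). MOB1B was at 3.63 log2 CPM in DCIS.COM pCDH-empty replicate 1 and at 4.73 to 4.84 in the other 3 DCIS.COM libraries, and its effect was -0.04 without that library. The difference of the effects between the lines was highest for MOB1B (0.57) and lowest for FAT4 (-0.59), neither called.

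A list of 17 conserved targets of YAP and TAZ other than the members was measured in full. PTPN14 is in this list and also among the pathway components above. With the empty vector 6 were called higher in DCIS.COM and 6 lower, against 22.5% and 23.8% of all genes. The median log2 difference was -0.20, beside -0.0001 for all genes. It was -0.18 without DCIS.COM pCDH-empty replicate 1, beside 0.01 for all genes. With HOTAIR 2 and 7 were called, against 22% and 21.7%. FOXF2, a forkhead factor, had 0 reads in every MCF10A library and 366 in the DCIS.COM pCDH-empty libraries, at least 124-fold higher against 3 counts over the group. AXL, a receptor tyrosine kinase, was higher by 1.63 on the log2 scale, and by 1.32 without DCIS.COM pCDH-empty replicate 1. With HOTAIR its mean was 3.57 log2 CPM in DCIS.COM and 3.26 in MCF10A, and it was not called. CCDC80 and F3, which encode a secreted matrix protein and tissue factor, were lower in DCIS.COM, by 98.9-fold (-6.63) and 58.7-fold (-5.88). With HOTAIR in both lines the RNA-binding protein gene RBMS3 was higher by 1.01.

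With HOTAIR in MCF10A, 16 of the 17 targets had a positive log2 difference (as did 47.7% of all genes; median 0.08, beside -0.0055 for all genes) and FOXF2 was at 0 reads in all libraries. None was called by limma, and 5 were higher at an unadjusted p under 0.05, where 4.41% of all genes were. Without MCF10A pCDH-empty replicate 1 the split was 11 positive and 6 negative, with 2 under that limit, and 2 and 3 were under it without pCDH-HOTAIR replicate 2 and replicate 1. The median was 0.22 without MCF10A pCDH-empty replicate 2 and 0.14 without pCDH-HOTAIR replicate 1. The largest value was that of AXL, which was at 2.36 and 1.99 log2 CPM in MCF10A pCDH-empty and 3.31 and 3.21 in MCF10A pCDH-HOTAIR (1.09, adjusted p = 0.215, limma). Using edgeR on these same libraries, the study reports AXL as upregulated with HOTAIR in MCF10A, whereas limma did not call it here. Its value is therefore not independent evidence of direction. In DCIS.COM 7 were positive and 10 negative (median -0.06), and 6 were higher and 3 lower at an unadjusted p under 0.05, against 9.08% and 8.41% of all genes. GADD45A, a DNA damage response gene, was highest there (0.50) and DOCK5, an exchange factor for RAC, lowest (-0.39). Without DCIS.COM pCDH-empty replicate 1 the split there was 9 and 8, with a median of 0.08. The difference of the effects was lowest for AXL (-1.32) and highest for RBMS3 (0.32), and none was called.

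**Figure D4:**
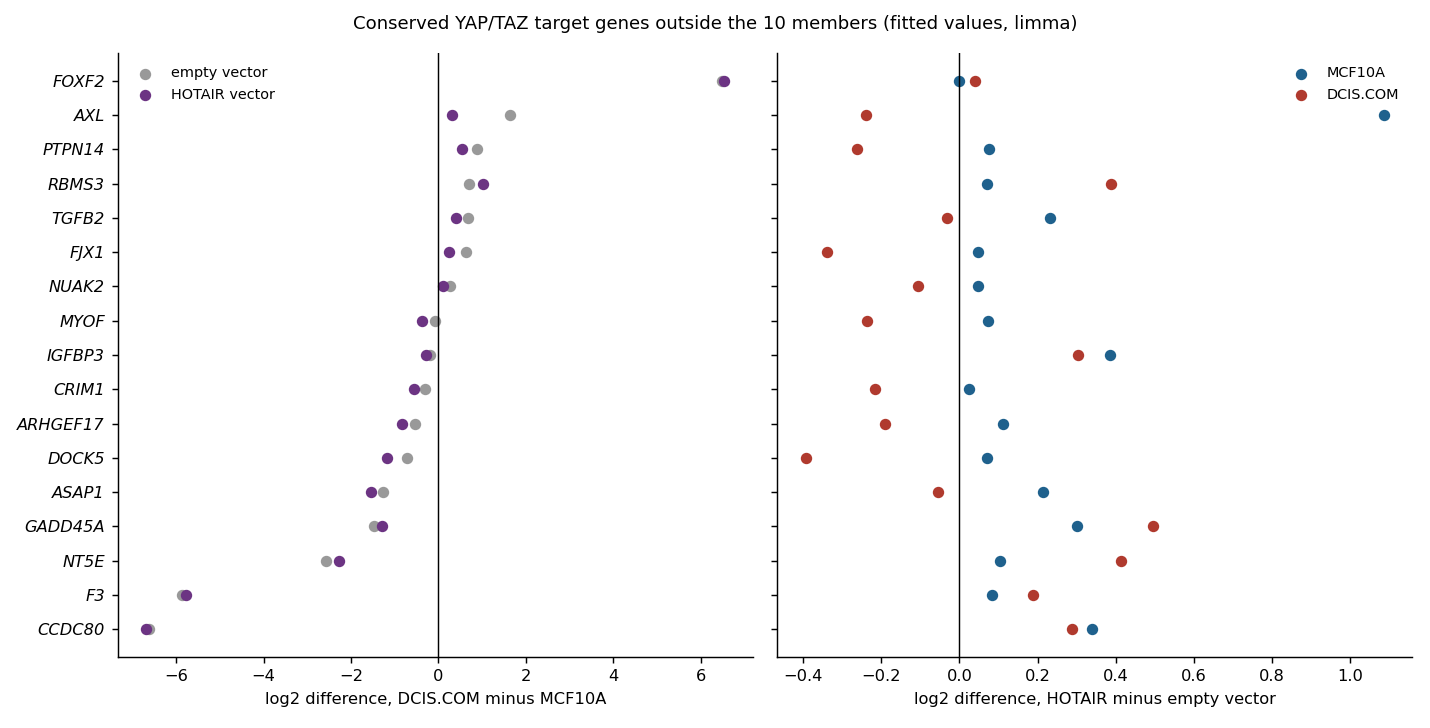
Log2 differences (x axes) of 17 conserved YAP and TAZ targets other than the 10 members (y axis), on the left for DCIS.COM minus MCF10A with each vector and on the right for pCDH-HOTAIR minus pCDH-empty in each line. FOXF2 and CCDC80 are at the extremes between the lines, and 16 of the 17 points for MCF10A on the right are above 0, with AXL at 1.09.

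SRF and its MRTF cofactors share several targets with YAP and TAZ, and 19 genes from a list of SRF or MRTF targets were measured. In DCIS.COM with the empty vector 4 were called higher and 11 lower (median log2 difference -0.95), against 22.5% and 23.8% of all genes. The median was -1.02 without DCIS.COM pCDH-empty replicate 1, beside 0.01 for all genes. With HOTAIR 2 and 11 were called (-1.09), against 22% and 21.7%. FLNA, which encodes the actin cross-linker filamin A, was 124-fold lower in DCIS.COM (-6.96), and EGR1, an immediate early factor, was higher by 3.05. TPM1, a tropomyosin, was higher by 1.48 with the empty vector, and TAGLN, which encodes transgelin, was at -4.77 with HOTAIR. FHL1, a LIM domain protein gene, had 75 and 80 reads in MCF10A pCDH-empty and 1 and 3 in DCIS.COM pCDH-empty. In MCF10A with HOTAIR 18 of 19 had a positive difference (median 0.19), as had 47.7% of all genes, with 7 higher at an unadjusted p under 0.05 (4.41% of all genes) and none called by limma. The 7 fell to 2 without MCF10A pCDH-HOTAIR replicate 2 and to 3 without MCF10A pCDH-empty replicate 1. MYL9, a myosin light chain, was at 1.48 and 1.45 log2 CPM in MCF10A pCDH-empty and 2.31 and 2.52 in MCF10A pCDH-HOTAIR (0.95, adjusted p = 0.324, limma), and EGR1 had the lowest value (-0.07). In DCIS.COM 5 were positive and 14 negative (median -0.11), but 11 and 8 without DCIS.COM pCDH-empty replicate 1 (median 0.03). FOS (0.60) and TAGLN (-0.59) were at the ends there, with 3 higher and 2 lower at an unadjusted p under 0.05, against 9.08% and 8.41% of all genes. The difference of the effects ran from -1.40 for MYL9 to 0.56 for FOS, with none called by limma. It was positive for 4 and negative for 15 (median -0.34, and -0.17 without DCIS.COM pCDH-empty replicate 1). At an unadjusted p under 0.05, 1 was higher in DCIS.COM and 8 lower, against 5.21% and 5.34% of all genes.

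Within the lines, the genes that followed the members most closely were found by Pearson's r over the 8 libraries after the mean of each line had been removed, among 9474 genes with a mean of at least 3 log2 CPM. These values are a description, since the libraries share groups and DCIS.COM pCDH-empty replicate 1 is among them. CCN1 was most like KRT81 (0.981), ARHGAP17 and MLXIP (0.977). CCN2 was most like SRF (0.977), JADE3 (0.976) and DNMBP (0.973). THBS1 came closest to IPO9 (0.992), RNF216P1 (0.988) and NCOA6 (0.9755), and YAP1 to UBE2K (0.998), ACTR2 (0.996) and TRIP6 (0.995). DCIS.COM pCDH-empty replicate 1 weighs heavily in the r values of YAP1. In log2 CPM it was at 6.43 for YAP1, against 6.71 to 6.76 in the other DCIS.COM libraries. For UBE2K it was at 5.64 against 6.25 to 6.36, and for ACTR2 at 8.17 against 8.63 to 8.70. Shared regulation was not tested.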

How the data were processed

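The authors aligned paired-end ScriptSeq reads to hg19 with Rsubread, counted them on UCSC known genes with featureCounts, named genes with org.Hs.eg.db and normalized with edgeR, per the paper's methods. They deposited log2 CPM values for 13771 genes, each above 0.5 CPM in at least 2 libraries, and 343 of these had no symbol. Whole reads were recovered from the equal steps of these values (tolerance 0.05 reads, prior 0.0717 CPM). The setting for strand and the treatment of overlapping genes are not given in the sources used here.

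The 10 genes and the other lists were chosen with earlier results of these data known. Differences were tested on the log2 CPM as deposited with limma 3.58.1 in R 4.3.3 (a mean for each of the 4 groups, moderated with a trend of variance on level), adjusted over all genes. A call required an adjusted p below 0.05 and 1.5-fold, or for the difference between lines the adjusted p alone. The HOTAIR effects and the line differences share control libraries. Named for each list were the called genes with the 2 largest differences in each direction between the lines and the genes with the highest and lowest HOTAIR effect, and for CCN1, CCN2, THBS1 and YAP1 the 3 most similar genes. Levels per kb used the canonical transcript length of GENCODE v44 on GRCh37. Fold changes of genes with few reads are understated on this scale. Intervals of read ratios are exact and cover counting error only. The alternatives were median centring, quantile normalization, a mean CPM of at least 2, log2(CPM + 1) and log2(CPM + 0.1), no trend, a replicate block, separate fits, no fold threshold, limma-voom on recovered reads and leaving out each library.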

Additional observations from a re-analysis of the deposited data

Results flagged for a closer look

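In 4 genes every pCDH-HOTAIR library was above its control mean in MCF10A and below it in DCIS.COM, a pattern found in 13.6% of all genes, and for each the difference between the lines was tested by limma and did not pass. CCN1, the gene for CYR61, was 0.33 and 0.45 above the control mean in MCF10A and at -0.60 and -0.50 in DCIS.COM, on the log2 scale, with a difference of the effects of -0.94 (adjusted p = 0.238). CCN2, the gene for CTGF, was at 0.18 and 0.68 against -0.54 and -0.34, with a difference of -0.87 (adjusted p = 0.419). AMOTL2 was at 0.07 and 0.01 against -0.42 and -0.35, with a difference of -0.43 (adjusted p = 0.430). LATS2 was at 0.11 and 0.09 against -0.14 and -0.16, with a difference of -0.25 (adjusted p = 0.501). The DCIS.COM control mean includes pCDH-empty replicate 1, the library that stood apart. Without it the differences were -0.77, -0.69, -0.25 and -0.16.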

How the results depend on the processing

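Of 715 values of the members recomputed under the alternatives, 685 kept their sign and their side of the threshold, 3 lost a call, 12 gained one and 15 changed sign. With no trend, the replicate block, separate fits or no fold threshold, each log2 difference stays the same by construction, so no sign could change there. The count of 685 includes those settings and so overstates how far the signs were tested. Every change of sign came from leaving out 1 library, where a lone library is assumed to vary like the other groups, and concerned HOTAIR effects near 0 or the line difference of LATS2. On leaving out each library, the effect in MCF10A ranged from -0.0117 to 0.0583 for YAP1, from -0.0805 to 0.0150 for TEAD1, from -0.0036 to 0.20 for LATS2 and from -0.28 to 0.28 for THBS1. The effect in DCIS.COM ranged from -0.0661 to 0.17 for WWTR1 and from -0.44 to 0.11 for ANKRD1. The difference of the effects ranged from -0.16 to 0.0752 for WWTR1 and from -0.0677 to 0.0282 for TEAD1, and the line difference of LATS2 with the empty vector from -0.0712 to 0.14. The number of members called ranged from 0 to 4 for HOTAIR in DCIS.COM and from 0 to 5 for the difference of the effects, the highest values in both cases without DCIS.COM pCDH-empty replicate 2. Between the lines with the empty vector it ranged from 6 to 7. Dropping the fold threshold added TEAD1 (-0.41 with the empty vector, -0.43 with HOTAIR) and AMOTL2 (0.28). Replicate numbers did not pair the libraries (correlations of deviations -0.016 to 0.0661), and with the number as a replicate block 0, 0 and 0 members were called for HOTAIR in MCF10A, in DCIS.COM and for their difference, and 7 and 6 between the lines. Between the lines the block called 6378 of the 13771 genes with the empty vector and 6031 with HOTAIR. Over all genes, alternatives that kept every library called 1 to 6 genes for HOTAIR in MCF10A (3 as reported), 0 to 20 in DCIS.COM (12) and 0 to 10 for the difference (6), with 0 in DCIS.COM from separate fits and 0 for the difference with no trend or with the block. With 2 libraries a group and as few as 4 and 1 reads of ANKRD1 in the MCF10A controls, depth limits that gene in MCF10A.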
